A study of Mus musculus with 6 samples.

Results

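Collagen chain genes were examined in mouse soleus, a postural calf muscle. They were taken as every gene whose symbol has the form Col, a type number, a and a chain number in the table that pairs the transcript clusters of the array with genes. The rule gave 44 genes among the 19938 genes measured, and it used no signal except to choose between the clusters of a gene with more than 1. They divided into 11 fibrillar collagen chains, 6 chains of type IV collagen, the network of basement membranes, and 27 chains of other types. The animals were C57BL/6 males aged 8 weeks by their labels. The control group carried no treatment in its labels. The second group had hindlimb suspension, in which the hind limbs are lifted so that their muscles bear no weight. The third had hindlimb suspension with electroacupuncture, a current passed through acupuncture needles. Each group held 2 Affymetrix Mouse Gene 1.0 ST arrays of total soleus RNA, numbered 1 and 2 by their labels. The length of suspension and the sites and settings of the current are not given in the sources used here. Whether both arrays of a group stand for different mice is not told by the labels, so p-values measure the spread between arrays, which may be technical.

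Collagens are made of chains that wind into a triple helix. Fibrillar types, in muscle mainly types I and III, form the load-bearing fibrils of tendon, epimysium and the sheaths around fibre bundles, and types V and XI sit in the fibril core and govern its diameter. Type IV lies in the basement membrane around each muscle fibre and capillary, type VI forms beaded filaments next to it, and types XII and XIV bind to the surface of fibrils. Chains are hydroxylated and folded in the endoplasmic reticulum, secreted, trimmed by procollagen proteases and cross-linked by lysyl oxidases, and in muscle most are made by fibroblasts.

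Signals are the deposited log2 values, on which a difference of 1 is a doubling. Array medians over all genes ran from 4.55 to 4.61, and the 2 arrays of a group differed with an SD over genes of 0.357 in control, 0.293 in suspension and 0.251 with electroacupuncture. As a measure of background, 1015 olfactory receptor genes, which muscle is not known to use, had a median signal of 2.11 and a 95th percentile of 3.50. A total of 43 of the 44 collagens had a mean signal above that percentile, and the exception was Col4a6, a minor type IV chain, at 3.33. All 9 soleus muscle markers, among them the slow myosin gene Myh7, were above it too. With 2 arrays a group the precision is limited, and the median standard error (SE) of a difference was 0.173.

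The promoter windows of 4 members are shown because these genes stand for the 4 patterns described here. Col1a2 was lower in all suspended arrays and far apart between the 2 suspension arrays, Col3a1 was as far apart with no lower mean beyond its error, Col15a1 was evenly lower in all 4 suspended arrays, and Col8a1 was low in suspension and near control in the electroacupuncture group. Each sequence is the 250 bases before the annotated start of the gene, from RefSeq (GRCm38.p6), read along the gene's strand. Capitals mark motifs searched on both strands. The letters were CCAAT for the box of that name and TATAA for the TATA box. They were GGGCGG for the GC box and CAGACA for the SMAD element. In the Col3a1 window the capitals TTATAA hold the TATA letters on both strands, which overlap there. The coordinates are chr6:4505368-4505617 on the plus strand for Col1a2, chr1:45311288-45311537 on the plus strand for Col3a1, chr4:47207762-47208011 on the plus strand for Col15a1 and chr16:57754738-57754987 on the minus strand for Col8a1.
Col1a2: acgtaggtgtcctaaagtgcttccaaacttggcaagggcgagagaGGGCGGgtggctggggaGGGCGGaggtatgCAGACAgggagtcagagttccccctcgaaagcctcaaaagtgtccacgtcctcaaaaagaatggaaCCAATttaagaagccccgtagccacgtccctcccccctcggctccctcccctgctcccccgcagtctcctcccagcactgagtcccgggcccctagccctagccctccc
Col3a1: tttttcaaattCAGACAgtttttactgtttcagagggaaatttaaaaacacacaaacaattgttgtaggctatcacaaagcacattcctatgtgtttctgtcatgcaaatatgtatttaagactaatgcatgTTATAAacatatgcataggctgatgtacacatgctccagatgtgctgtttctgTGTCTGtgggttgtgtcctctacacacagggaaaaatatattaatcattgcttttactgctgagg
Col15a1: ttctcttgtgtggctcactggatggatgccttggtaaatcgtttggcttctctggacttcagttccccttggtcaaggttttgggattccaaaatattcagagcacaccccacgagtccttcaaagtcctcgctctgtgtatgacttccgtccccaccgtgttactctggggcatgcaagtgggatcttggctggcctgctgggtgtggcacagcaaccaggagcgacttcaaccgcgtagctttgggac
Col8a1: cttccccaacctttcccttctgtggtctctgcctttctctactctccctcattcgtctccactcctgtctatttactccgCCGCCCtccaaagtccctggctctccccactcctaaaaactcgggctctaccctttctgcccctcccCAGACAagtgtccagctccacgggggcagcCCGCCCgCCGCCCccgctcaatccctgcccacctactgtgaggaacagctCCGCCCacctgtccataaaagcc
The Col1a2 window held a CCAAT box that starts 109 bases before the start of the gene, GC boxes at 205 and 188 bases and a SMAD element at 175 bases. The Col3a1 window held SMAD elements at 239 and 65 bases, and the Col8a1 window held 4 GC boxes and a SMAD element at 103 bases. None of these letters stood in the Col15a1 window. RefSeq windows of 300 bases, with 50 bases after the start, were matched for 35 of the 44 members (38 windows). In every window only the 250 bases before the start were searched. The GC box stood in 22 of the 38 collagen windows (57.9%) and in 32.7% of all 32817 windows. The CCAAT box stood in 13 (34.2%, against 33.8% of all), the TATA box in 7 (18.4%, against 22.8%) and the SMAD element in 9 (23.7%, against 17.1%). Col4a1 and Col4a2, which encode the main type IV chains, lie head to head on chromosome 8 with starts 21 bases apart, and their 300-base windows overlap by 78 bases on opposite strands. A match of letters is a description and not a binding site.

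Suspension was compared with control to see what unloading does to the soleus. Collagen signals were mostly lower in suspended soleus: 35 of the 44 differences lay below 0 (79.5%, against 48.9% of all genes), with a median of -0.17 against 0.01 for all genes. The count was 27 of 44 (61.4%) without control array 1 and also without suspension array 1. Col12a1, a chain of the fibril-surface collagen XII found in tendon and muscle sheaths, fell 1.93-fold and was the 1 collagen past adjusted p 0.05 in limma with Benjamini-Hochberg adjustment. By the same criterion 102 of all genes (0.512%) fell. The genes of type I collagen, Col1a1 and Col1a2, had the largest differences, 3.08-fold and 2.31-fold lower, but did not pass the test, and their 2 suspension arrays lay far apart. At an unadjusted p under 0.05 in limma, 9 collagens were lower and 0 higher: Col1a1, Col1a2, Col11a1, Col6a1, Col6a2, Col12a1, Col22a1, Col15a1 and Col8a1. Over all genes 6.09% were lower at that level. For 16 collagens both suspension arrays lay below both control arrays and for 0 above, while 18.5% of all genes lay below and 21.3% above in that way.

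The log2 differences from the control mean for each of the 44 genes on each array are drawn in the heat map.

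**Figure D1:**
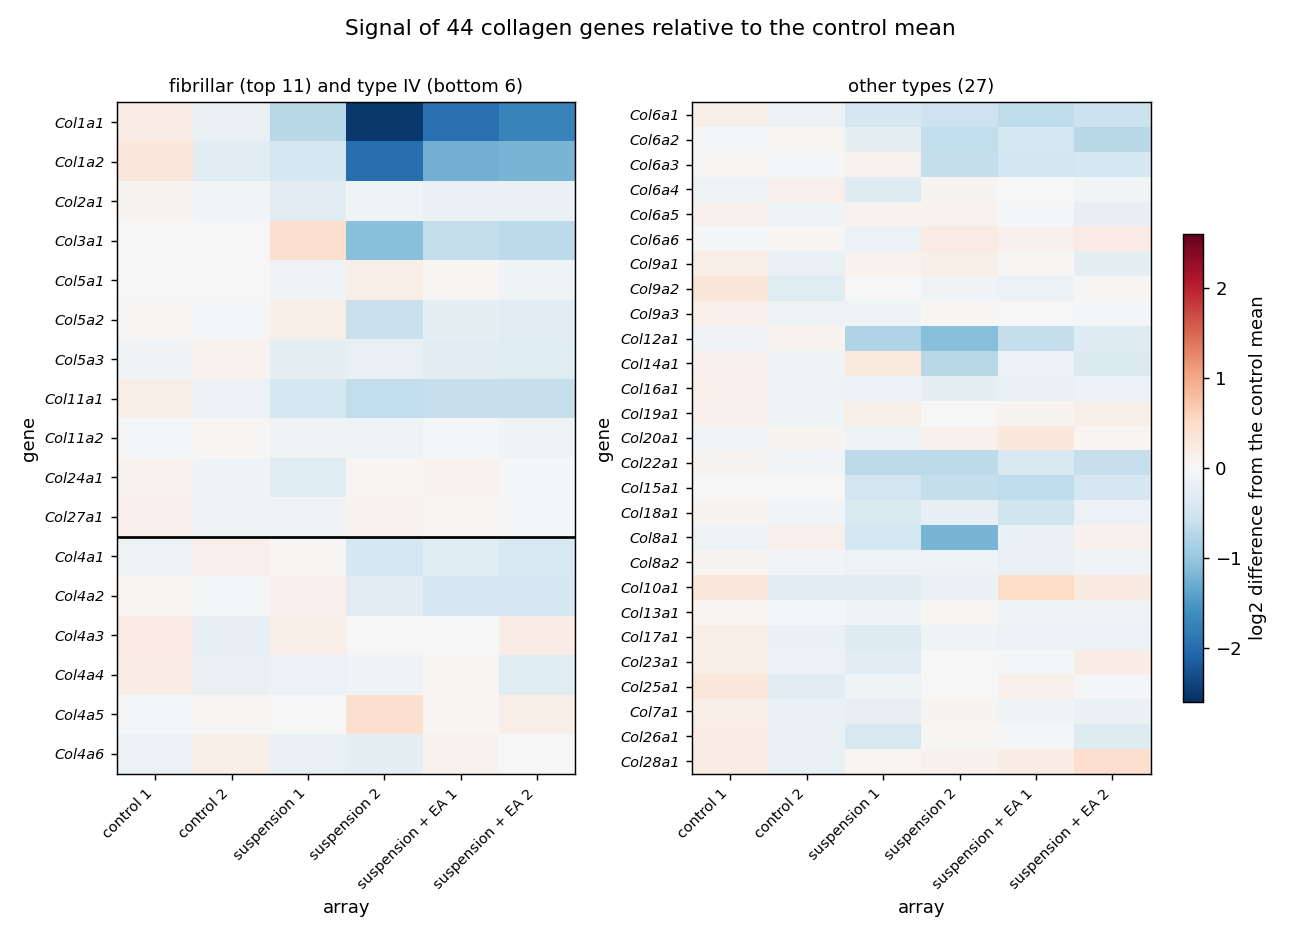
Each cell is the log2 signal of 1 collagen gene (rows) on 1 array (columns) minus the mean of the 2 control arrays, blue below and red above it. Left, 11 fibrillar chains above the line and 6 type IV chains below it; right, 27 chains of other types. Col1a1 in suspension array 2 is the darkest cell at -2.52, and Col1a1, Col1a2, Col3a1 and Col8a1 differ visibly between the 2 suspension columns. EA, electroacupuncture.

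Among the fibrillar chains, 9 of 11 differences between suspension and control lay below 0, with a median of -0.20, and 0 passed the limma test after adjustment (3 at an unadjusted p under 0.05, all lower). Col1a1 encodes the chain that makes up most of the type I collagen helix. Its log2 signal was 9.41 and 9.01 in the control arrays, 8.48 and 6.69 in the suspension arrays, and 7.27 and 7.48 in the electroacupuncture arrays. All 4 suspended arrays were below both controls, and suspension array 1 was above both electroacupuncture arrays while array 2 was below them. The difference from control was -1.62 ± 0.45 (SE; adjusted p = 0.157). Without suspension array 1 it was -2.52, and without array 2 it was -0.73.

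Col1a2, the partner chain of type I collagen, followed the same order. Its signal was 8.999 and 8.46 in control, 8.28 and 6.77 in suspension and 7.48 and 7.53 with electroacupuncture. Suspension array 1 lay just under the lower control array and array 2 was the lowest of all. The difference from control was -1.20 ± 0.40 (SE; adjusted p = 0.234). Without suspension array 1 it was -1.96, and without array 2 it was -0.45. In control and suspension the lower type I signal of both genes was in array 2.

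Col3a1, the chain of the thin pliant fibrils found with type I, had signals of 6.74 and 6.71 in control, 7.16 and 5.64 in suspension and 6.11 and 6.05 with electroacupuncture. Suspension array 1 was above both controls and array 2 below them, so these groups overlapped. The mean difference was -0.33 ± 0.38 (SE; adjusted p = 0.804), and it was -1.09 without suspension array 1 and 0.44 without array 2. Col5a2, which encodes a chain of the fibril core, was split in the same way at a lower signal, with 5.15 and 5.07 in control, 5.29 and 4.53 in suspension and 4.85 and 4.84 with electroacupuncture. Its difference was -0.19 ± 0.23 (SE; adjusted p = 0.803).

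Not all core chains had such a gap between the suspension arrays. Col11a1, a chain of the fibril core that is best known from cartilage, gave 5.68 and 5.37 in control, 5.08 and 4.89 in suspension and 4.92 and 4.93 with electroacupuncture. The control arrays were apart from the 4 suspended arrays, and suspension differed from control by -0.54 ± 0.16 (SE; adjusted p = 0.180). Col5a3 gave 5.28 and 5.44 in control, 5.13 and 5.16 in suspension and 5.08 and 5.04 with electroacupuncture, a difference of -0.21 ± 0.14 (SE; adjusted p = 0.612). Col5a1, the main type V chain, showed no such order, with 5.48 and 5.45 in control, 5.37 and 5.61 in suspension and 5.49 and 5.36 with electroacupuncture. Its 95% interval for suspension minus control was -0.31 to 0.36. The remaining fibrillar chains Col2a1, Col11a2, Col24a1 and Col27a1 had differences of -0.20, -0.09, -0.14 and 0.01.

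The signals of 12 members across the arrays are plotted by group.

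**Figure D2:**
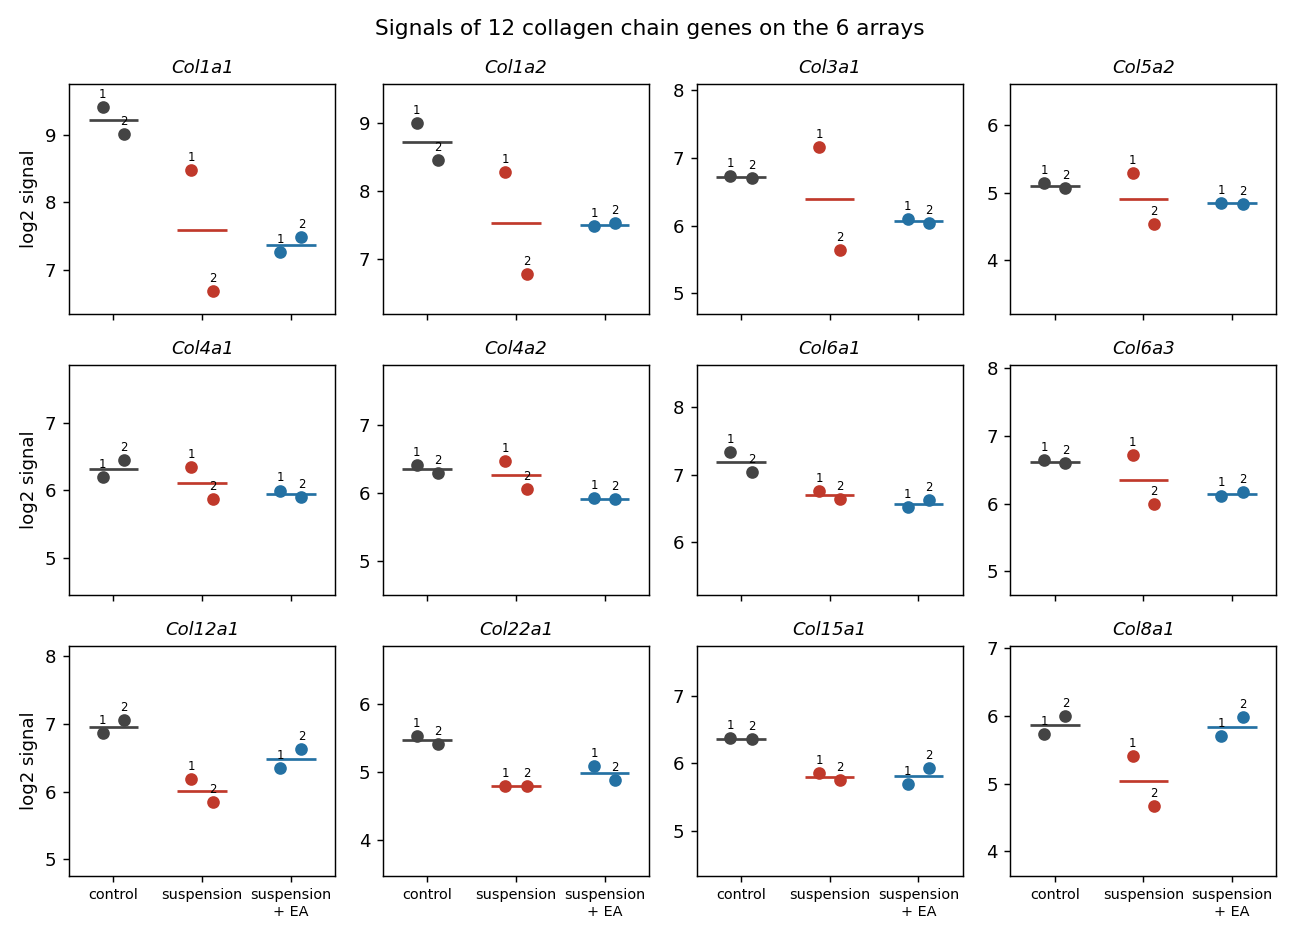
Each point is the log2 signal (vertical axis) of 1 array, with its array number, in control, suspension and suspension with electroacupuncture (EA), and each line is the mean of 2 arrays. Every panel spans the same number of log2 units at its own level. Col1a1 runs from 9.41 to 6.69 with the suspension points wide apart, whereas the suspension points of Col22a1 and Col15a1 lie close together below both controls.

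Among the basement membrane chains, 4 of 6 differences lay below 0 in suspension minus control, with a median of -0.10, 0 past the limma test and 0 at an unadjusted p under 0.05. The median was 0.018 without control array 1 (3 of 6 below 0), 0.017 without suspension array 2 (2 of 6) and -0.16 without suspension array 1 (5 of 6). Col4a1 gave 6.19 and 6.45 in control, 6.35 and 5.87 in suspension and 6.00 and 5.90 with electroacupuncture. Col4a2 gave 6.41 and 6.30 in control, 6.48 and 6.06 in suspension and 5.92 and 5.91 with electroacupuncture. In both genes suspension array 1 lay among or above the controls and array 2 below them. The differences were -0.21 ± 0.18 (SE; adjusted p = 0.717) for Col4a1 and -0.08 ± 0.16 (SE; adjusted p = 0.892) for Col4a2. The chains Col4a3 to Col4a6, known from kidney, eye and other specialised membranes, differed by 0.09, -0.12, 0.21 and -0.21, each with a 95% interval that spans 0, and Col4a6 was at background in suspension. Col4a4 is among the members furthest apart between the electroacupuncture arrays, with 4.25 and 3.88 in control, 3.92 and 3.97 in suspension and 4.11 and 3.76 with electroacupuncture.

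Of the 27 other chains, 22 differences lay below 0 in suspension minus control, with a median of -0.14. Without control array 1 it was 15, with a median of -0.038, without control array 2 it was 25, with a median of -0.32, and without suspension array 1 it was 14, with a median of -0.096. Col12a1 gave 6.86 and 7.06 in control, 6.18 and 5.85 in suspension and 6.35 and 6.62 with electroacupuncture. The 3 groups did not overlap, and the electroacupuncture arrays lay between the other groups. Suspension minus control was -0.94 ± 0.17 (SE; adjusted p = 0.0413), with the means at 6.96 ± 0.14 (SD) in control and 6.02 ± 0.23 (SD) in suspension. This call was lost with any 1 of the 6 arrays left out (adjusted p from 0.0600 to 0.217), although the difference stayed between -1.11 and -0.78.

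The other fibril-surface collagens differed among themselves. Col22a1, a chain found at the junction of muscle and tendon, gave 5.54 and 5.41 in control, 4.79 and 4.80 in suspension and 5.09 and 4.87 with electroacupuncture. All 4 suspended arrays were below the controls, and suspension minus control was -0.68 ± 0.15 (SE; adjusted p = 0.0856). Col14a1, a close relative of Col12a1, was instead split between the suspension arrays, with 5.92 and 5.69 in control, 6.06 and 5.08 in suspension and 5.65 and 5.43 with electroacupuncture. Its difference was -0.24 ± 0.28 (SE; adjusted p = 0.800). Col9a2, a chain of type IX collagen of cartilage, was among the members furthest apart between the control arrays, with 5.84 and 5.23 in control, 5.52 and 5.44 in suspension and 5.39 and 5.57 with electroacupuncture. All 4 suspended arrays lay between the controls, and the difference was -0.06 ± 0.20 (SE).

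Type VI collagen, which anchors the basement membrane of fibres to the matrix around it, had lower mean signals in suspension for its 3 classical chains Col6a1, Col6a2 and Col6a3. Col6a1 gave 7.33 and 7.04 in control, 6.76 and 6.64 in suspension and 6.52 and 6.62 with electroacupuncture. Col6a2 gave 6.88 and 6.97 in control, 6.67 and 6.28 in suspension and 6.48 and 6.21 with electroacupuncture. Both genes were lower in every suspended array than in either control, with differences for suspension of -0.49 ± 0.15 (SE; adjusted p = 0.180) and -0.45 ± 0.17 (SE; adjusted p = 0.296). Col6a3 gave 6.65 and 6.60 in control, 6.72 and 5.99 in suspension and 6.12 and 6.17 with electroacupuncture, and its suspension array 1 was above the controls. The difference was -0.27 ± 0.21 (SE; adjusted p = 0.691). For Col6a4, Col6a5 and Col6a6 the differences were -0.14, 0.09 and 0.03. Col6a5 and Col6a6 each had a second, dimmer cluster on the array, with means of 2.75 and 3.94 against 4.15 and 5.35 for the clusters used.

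The multiplexins, which bridge basement membranes and the matrix and release endostatin-like fragments, had close suspension arrays. Col15a1 gave 6.38 and 6.36 in control, 5.86 and 5.75 in suspension and 5.70 and 5.93 with electroacupuncture. The gap between the control and the suspended arrays was larger than the gap between any 2 arrays of a group, and suspension minus control was -0.56 ± 0.14 (SE; adjusted p = 0.118). Col18a1 gave 5.49 and 5.34 in control, 5.04 and 5.21 in suspension and 4.89 and 5.26 with electroacupuncture, a difference of -0.29 ± 0.17 (SE; adjusted p = 0.550).

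Col8a1, a short-chain collagen of vessel walls, gave 5.74 and 6.01 in control, 5.41 and 4.67 in suspension and 5.70 and 5.98 with electroacupuncture. Both suspension arrays were below every other array, and the electroacupuncture arrays lay beside the controls. Suspension minus control was -0.83 ± 0.24 (SE; adjusted p = 0.166). The other short-chain genes were Col8a2, with a difference of -0.13, and Col10a1, known from growth plate cartilage, whose suspension arrays were at background. Col25a1, a transmembrane collagen, was another member with distant control arrays, at 4.71 and 4.13, and gave 4.31 and 4.42 in suspension and 4.56 and 4.37 with electroacupuncture. Col26a1 gave 5.63 and 5.26 in control, 5.03 and 5.48 in suspension and 5.39 and 5.11 with electroacupuncture. The groups overlapped for both genes, and their differences were -0.05 and -0.19. The 21 members that the naming rule did not single out ran from -0.21 to 0.21 in this comparison, and their smallest unadjusted p in limma was 0.201.

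Electroacupuncture in suspended muscle was compared with suspension alone to see what the treatment adds. Collagen differences were centred near 0, with 24 below and 20 above it and a median of -0.01, the same as the median of all genes at -0.01. With either suspension array left out, 20 lay below and 24 above. By limma with Benjamini-Hochberg adjustment 0 of 44 collagens passed the test, and 0% of all genes did. At an unadjusted p under 0.05, 3 collagens were higher and 0 lower: Col8a1, Col12a1 and Col10a1, the last against suspension arrays at background. Over all genes 1.56% were higher at that level. For 6 collagens both electroacupuncture arrays lay above both suspension arrays (Col4a6, Col12a1, Col22a1, Col8a1, Col10a1 and Col28a1), against 15.4% of all genes. Of these, Col4a6 was at background in all 4 arrays and Col10a1 in the suspension arrays. For 5 they lay below (Col5a3, Col4a2, Col6a1, Col6a5 and Col9a1), against 17.1% of all genes.

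The largest difference was that of Col8a1, at 0.80 ± 0.24 (SE; adjusted p = 1.00), 1.75-fold higher than in suspension. Col12a1 differed by 0.47 ± 0.17 (SE; adjusted p = 1.00). Col10a1, at a low signal, gave 3.95 and 3.39 in control, 3.38 and 3.49 in suspension and 4.15 and 3.90 with electroacupuncture, with both suspension arrays under the background limit of 3.50. Its treated mean of 4.02 was therefore at least 1.44-fold higher than suspension, against a measured suspension mean of 3.44 (adjusted p = 1.00). None of the differences of Col8a1, Col12a1 and Col10a1 passed the adjusted test, and this comparison shares its suspension arrays with that of suspension and control.

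The type I genes did not show the upward difference of Col8a1. Col1a1 differed by -0.21 ± 0.45 (SE) between electroacupuncture and suspension, with a 95% interval of -1.24 to 0.81, and Col1a2 by -0.02 ± 0.40 (SE), with an interval of -0.92 to 0.88. The suspension arrays lay on both sides of the treated ones: without array 1 the difference of Col1a1 was 0.68, and without array 2 it was -1.11. The difference for Col3a1 was -0.32 ± 0.38 (SE), again of either sign with 1 suspension array left out. Col4a2 differed by -0.35 ± 0.16 (SE; unadjusted p = 0.0581 in limma), and its electroacupuncture arrays lay below both suspension arrays. By class, the medians were -0.06 for fibrillar chains, -0.06 for type IV chains and 0.03 for the others.

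The treated, suspended muscle was also set against control, with the same control arrays as in the first comparison. Here 33 of 44 differences lay below 0 (75.0%, against 49.0% of all genes), with a median of -0.14 against 0.01 for all genes. Without control array 1 the count was 26 of 44 (59.1%). By limma with Benjamini-Hochberg adjustment 0 collagens passed the test in either direction, while 0.587% of all genes fell. At an unadjusted p under 0.05, 9 collagens were lower and 0 higher: Col1a1, Col1a2, Col11a1, Col4a2, Col6a1, Col6a2, Col12a1, Col22a1 and Col15a1. Over all genes 6.34% were lower at that level. For 21 collagens both arrays lay below both controls, against 20.0% of all genes. For 3 (Col4a5, Col6a6 and Col28a1) they lay above, against 21.8% of all genes.

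Col1a1 was 3.58-fold lower than control, at -1.84 ± 0.45 (SE; adjusted p = 0.116), and Col1a2 was 2.34-fold lower, at -1.23 ± 0.40 (SE; adjusted p = 0.231). Their 2 electroacupuncture arrays lay within 0.21 and 0.05 of each other. The suspension arrays enter the error of this comparison although not its difference. Among the alternatives run, the type I genes passed the test only where a suspension array or both were left out of the fit. They did not pass with a control or an electroacupuncture array left out, where a compared group keeps 1 array. With 1 array left out the difference ran from -2.04 to -1.64 for Col1a1 and from -1.495 to -0.957 for Col1a2. Fitted on control and electroacupuncture arrays alone, Col1a1 and Col1a2 gave adjusted p = 0.0178 and 0.0426.

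Further members below control in the treated group were Col6a1 at -0.62 ± 0.15 (SE; adjusted p = 0.104), Col15a1 at -0.55 ± 0.14 (SE; adjusted p = 0.131) and Col11a1 at -0.60 ± 0.16 (SE; adjusted p = 0.146). Col22a1 differed by -0.49 ± 0.15 (SE; adjusted p = 0.195), Col12a1 by -0.48 ± 0.17 (SE; adjusted p = 0.268) and Col3a1 by -0.65 ± 0.38 (SE; adjusted p = 0.561). For Col8a1 the difference was -0.03, with a 95% interval of -0.57 to 0.51. Among type IV chains Col4a2 had the largest difference, -0.44 ± 0.16 (SE; adjusted p = 0.297), followed by Col4a1 at -0.37 ± 0.18 (SE; adjusted p = 0.465).

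The 3 comparisons are drawn side by side for the 23 members named by the rule.

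**Figure D3:**
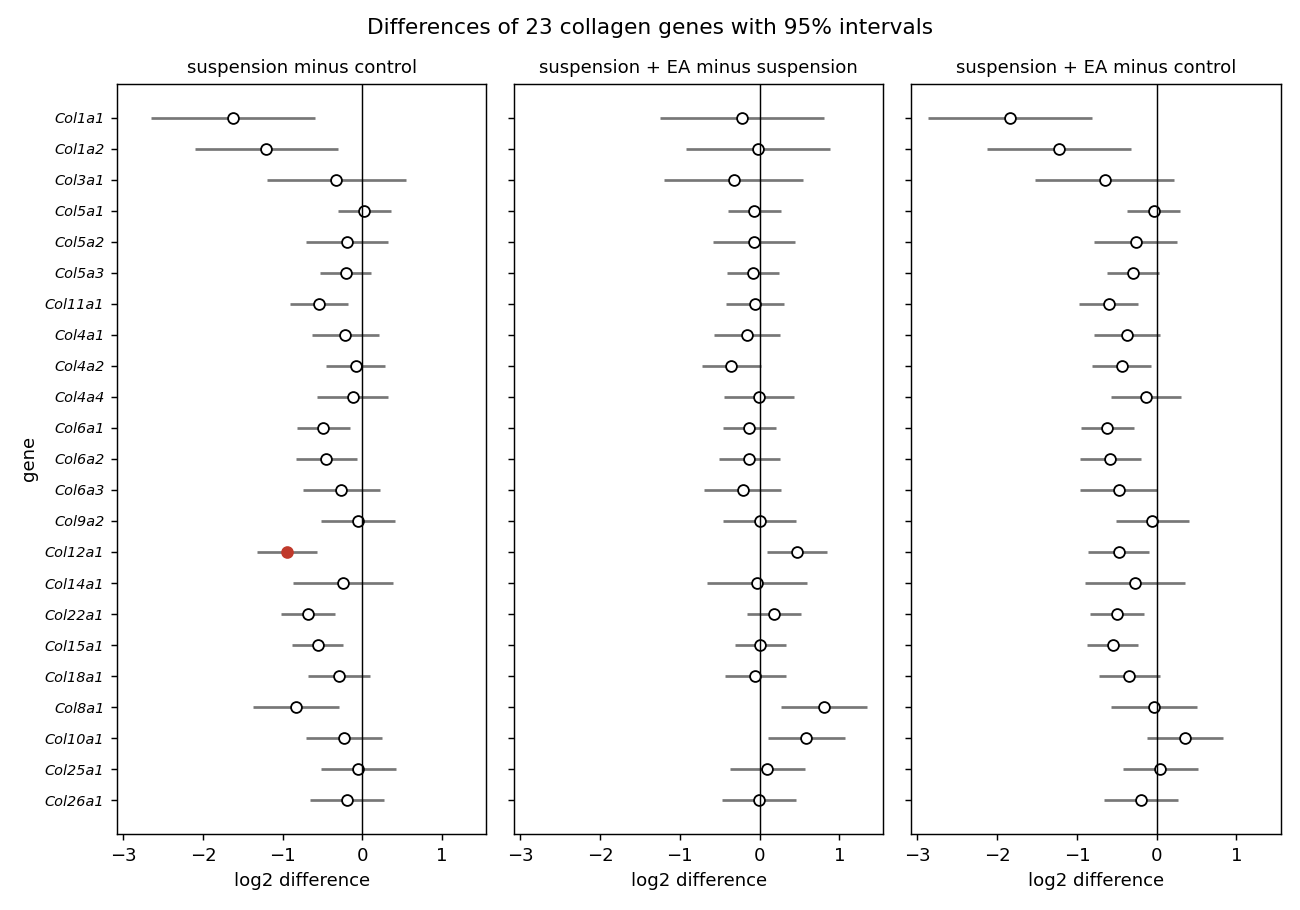
Points are log2 differences (horizontal axis) of 23 collagen genes (rows) for suspension minus control, suspension with electroacupuncture (EA) minus suspension, and suspension with EA minus control, and bars are 95% intervals from limma. The filled red point is the 1 difference past adjusted p 0.05, Col12a1 at -0.94; Col8a1 lies at -0.83, 0.80 and -0.03 in the 3 panels. The suspension arrays of Col10a1 were at background.

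A group of 14 collagens was lower in all 4 suspended arrays, treated or not, than in either control array (31.8%, against 11.7% of all genes). They were Col1a1, Col1a2, Col2a1, Col5a3, Col11a1, Col11a2, Col6a1, Col6a2, Col12a1, Col16a1, Col22a1, Col15a1, Col18a1 and Col8a2. They include 6 of the 11 fibrillar chains and no type IV chain, and 0 collagens were higher in all 4. Control array 1 held the highest signal for 23 of the 44 collagens, against 23.3% of all genes, and 33 were lower in control array 2 than in array 1 (75.0%, against 51.8% of all genes). The part of this gap in the differences from control was not tested, but the median of suspension minus control was -0.06 without control array 1 and -0.26 without control array 2.

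The 2 suspension arrays differed more for a few collagens than for most genes. Col1a1, Col3a1 and Col1a2 were lower in array 2 by more than 1 log2 unit, at -1.79, -1.53 and -1.50, and 0.712% of all genes differed so far. At a limit of 0.5 the count was 7 of 44 (15.9%, against 7.41% of all genes), with Col14a1, Col5a2, Col8a1 and Col6a3 as well. In the electroacupuncture group 0 collagens differed by more than 0.5, against 5.07% of all genes. In control 4 did (9.09%, against 14.0% of all genes).

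Genes that make, trim, bind and degrade collagen were counted in 7 lists of 98 genes measured. Of these, 2 fell in suspension and 0 rose: P4ha1 and Kera. Over all genes 0.512% fell and 0.537% rose. P4ha1, a catalytic subunit of prolyl 4-hydroxylase, gave 6.77 and 6.64 in control, 5.99 and 5.60 in suspension and 5.97 and 5.89 with electroacupuncture. Every suspended array was below both controls, and suspension minus control was -0.91 ± 0.16 (SE; adjusted p = 0.0413). It was the 1 call among 22 folding, hydroxylation and export genes, whose median was -0.27. At an unadjusted p under 0.05 in limma, 8 of the 22 were lower in suspension and 0 higher, against 6.09% and 6.63% of all genes. P3h2, a prolyl 3-hydroxylase, and P4ha2, another catalytic subunit of prolyl 4-hydroxylase, had differences of -0.79 and -0.62 (adjusted p = 0.0971 and 0.115). Pdia3, a disulfide isomerase, had a difference of -0.63 (adjusted p = 0.138). In the treated group against control P4ha1 differed by -0.78 (adjusted p = 0.0669). The call of P4ha1 in suspension was lost with any 1 of the 6 arrays left out (adjusted p from 0.0577 to 0.200).

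Kera, the fibril-binding proteoglycan keratocan, gave 6.42 and 6.11 in control, 4.14 and 4.21 in suspension and 4.15 and 4.59 with electroacupuncture. It fell by 2.09 in suspension (adjusted p = 0.00496) and by 1.89 in the treated group (adjusted p = 0.00764), and was the 1 call among 18 fibril-associated proteoglycans and glycoproteins, whose median was -0.46 in suspension. Its call in suspension held with each of the 6 arrays left out, and its call in the treated group was lost without either electroacupuncture array (adjusted p up to 0.0684). At an unadjusted p under 0.05 in limma, 8 of the 18 were lower in suspension and 0 higher, against 6.09% and 6.63% of all genes. Besides Kera, the genes named from that list were Fmod (fibromodulin) at -0.89, Prelp at -0.77 and Thbs1 (thrombospondin 1) at -0.91, with adjusted p = 0.0594, 0.0667 and 0.0864. Against suspension the treated group gave 0.85, 0.88 and 0.74 for these genes, and 0 of the 18 passed the test. In the treated group 6 of the 18 were higher than in suspension at an unadjusted p under 0.05 in limma and 0 lower. Over all genes 1.56% were higher at that level. For 8 of the 18 both electroacupuncture arrays lay above both suspension arrays and for 0 below, against 15.4% of all genes above. This comparison shares its suspension arrays with that of suspension and control.

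Of 12 procollagen processing and cross-linking genes 0 passed the limma test in any comparison, with a median of -0.17 in suspension and 2 lower at an unadjusted p under 0.05. Adamts3, a procollagen N-proteinase, differed by -0.77 (adjusted p = 0.0517), Loxl3, a lysyl oxidase relative, by -0.67, Pcolce, an enhancer of the C-proteinase, by -0.58, and Tgm2, a transglutaminase, by -0.33. The 11 basement membrane partners, 9 collagen receptors, 13 degradation genes and 13 TGF-beta and fibrosis regulators also had 0 calls in any comparison, with medians in suspension of -0.13, -0.02, 0.16 and 0.06. At an unadjusted p under 0.05 in suspension minus control, 1, 0, 1 and 2 of these lists' genes were lower and 2, 1, 2 and 2 higher, against 6.09% lower and 6.63% higher of all genes. Among the partners, Lama5 and Lamb2, which encode laminin chains, differed by 0.51 and 0.40, Nid1 by -0.34 and Lama2 by -0.32. Among the receptors, the collagen-binding integrin gene Itga11 differed by 0.61, Itga2 by -0.27, Mrc2 by -0.21 and Itgb1 by -0.14. Among the regulators, Acta2 differed by -0.52, Tgfbr1 by 0.39, Smad7 by -0.39 and Smad3 by 0.30.

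Among the degradation genes 12 of 13 were lower in suspension array 2 than in array 1, and 6 were apart by more than 1 log2 unit, against 54.4% and 0.712% of all genes. Only 10 of the 13 had a mean signal above background. Mmp1a and Mmp8 were at background in every group, so their order between arrays tells nothing about their expression. The signal of the collagenase gene Mmp13 was 3.35 and 2.88 in control, 10.02 and 4.09 in suspension and 4.29 and 3.24 with electroacupuncture. Suspension array 1 stood far above the other 5, and both control arrays were under the background limit of 3.50. The suspension mean of 7.05 was at least 11.8-fold higher than control, whose measured mean was 3.11 (adjusted p = 0.290), and it rests on array 1. Mmp14, a membrane-bound collagenase, was likewise highest in that array, at 8.39 against 6.49 in array 2, and the differences of Mmp14, the gelatinase gene Mmp2 and the inhibitor gene Timp4 were 1.41, 0.52 and -1.12. These arrays are the same pair that differed for Col1a1, Col1a2 and Col3a1.

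Markers of other cells moved between the same arrays. All 9 fibroblast markers were lower in suspension array 2 than in array 1, with median differences from the control mean of -0.37 and 0.22 and summed linear signals of 1860 and 2243, against 1820 to 2380 in control. All 10 macrophage markers measured were lower in array 2 too, with medians of -0.09 and 0.61, against 54.4% of all genes lower in array 2. The macrophage medians were 0.69 and 0.56 in the electroacupuncture arrays. Against control 9 of 10 lay above without overlap there (21.8% of all genes) and 4 were higher at an unadjusted p under 0.05 (6.47% of all genes), with a median difference of 0.63. Of the 10 tendon markers 7 were lower in array 2, with medians of -1.07 and -0.46, and their summed signal was 1413 and 2503 in suspension, 2830 and 3285 in the electroacupuncture group and 3218 and 3726 in control. At an unadjusted p under 0.05 in limma, 6 of the 10 were lower in suspension than in control and 0 higher, against 6.09% and 6.63% of all genes. Tnmd (tenomodulin), Kera and Chad fell in suspension, and Tnmd, Kera and the tendon transcription factor gene Scx fell in the treated group. With each of the 6 arrays left out Tnmd, Kera and Chad kept their calls in suspension, while Tnmd lost its call in the treated group without either electroacupuncture array. Scx kept its call in 1 of the 6 leave-outs, that of control array 1. No defining marker of the fibroblast or tendon list was at background. The part of tendon, fibroblasts and macrophages in the collagen differences was not tested. In whole muscle RNA, fewer cells of a type and less RNA per cell cannot be told apart.

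Other markers gave few calls. Of 9 endothelial markers Kdr, the VEGF receptor gene, fell by 1.28 in the treated group (adjusted p = 0.0135; up to 0.143 without an electroacupuncture array), with summed signals of 1270 and 1304 there, 1429 and 1676 in control and 1494 and 1672 in suspension. Of 9 soleus muscle, 9 fibroblast, 10 macrophage, 8 adipocyte and 5 nerve and Schwann markers 0 passed the limma test in any comparison. At an unadjusted p under 0.05 in suspension minus control they gave 4, 2, 0, 0 and 0 lower and 1, 2, 1, 0 and 0 higher, beside the same 6.09% and 6.63% of all genes. The adipocyte markers were apart between the control arrays, with median differences from the control mean of -0.81 and 0.81.

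The median shifts of these lists on each array are plotted below one another.

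**Figure D4:**
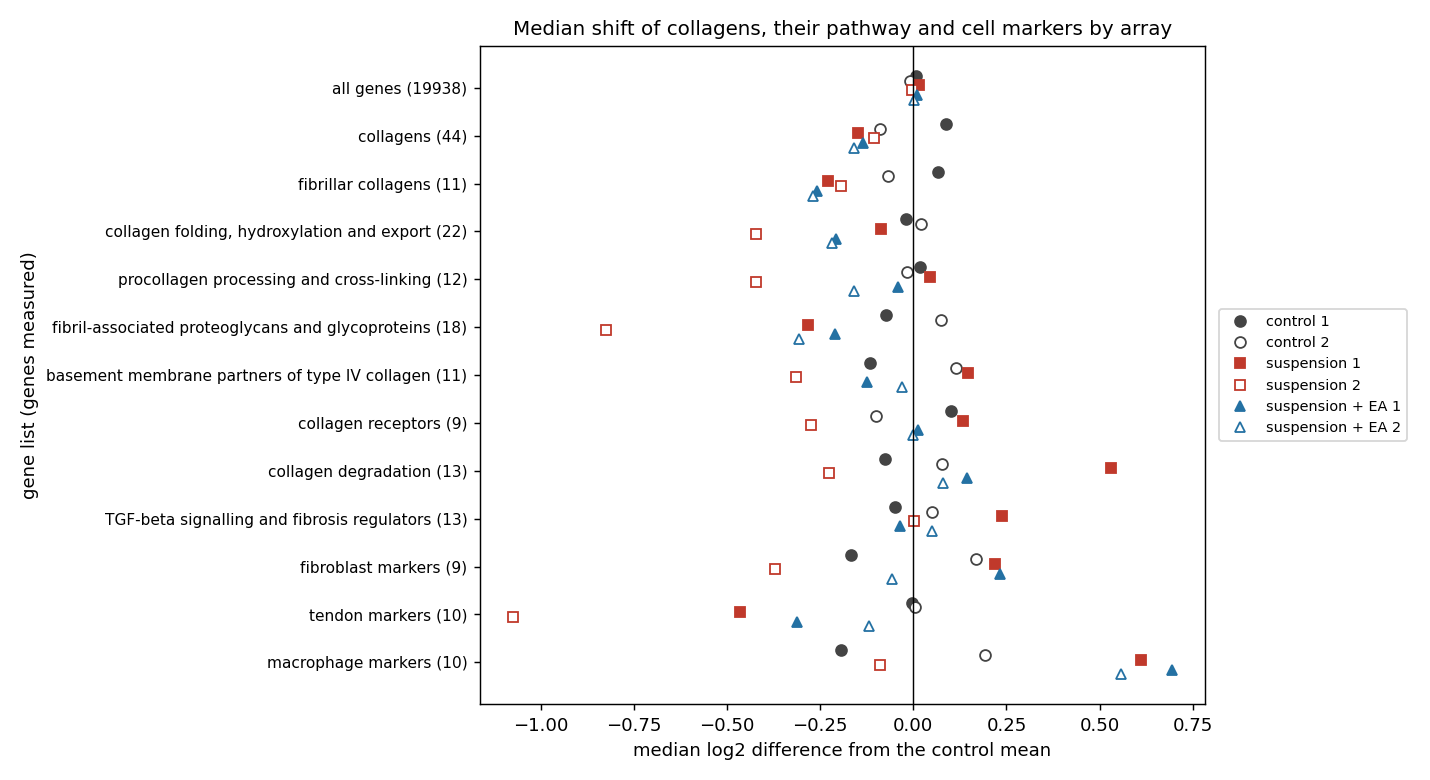
Each point is the median log2 difference from the control mean (horizontal axis) over the genes of a list (rows, with the number measured) on 1 array; filled symbols are arrays 1 and open symbols arrays 2 of control, suspension and suspension with electroacupuncture (EA). All genes lie near 0; the 44 collagens lie from -0.16 to -0.11 in the 4 suspended arrays, and the tendon markers reach -1.07 in suspension array 2.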

How the data were processed

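Per the labels, biotin-labelled total RNA from Trizol extracts of soleus was hybridized to 6 one-colour arrays. Deposited were log2 signals for 35556 transcript clusters, which the authors made with RMA in Affymetrix Expression Console, per the submitters' processing notes; versions and the genome build are not given in the sources used here. RMA draws the arrays to a common distribution, so a shift shared by all genes cannot be seen.

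Clusters were joined to genes through the platform annotation. Of them 21789 had 1 symbol, 1621 several and 12146 none, and the latter kinds were left out. For the 999 genes with several clusters the one with the highest mean was kept, with no filter on signal. Group means were fitted on all 6 arrays together in limma 3.58.1 under R 4.3.3 (eBayes with a trend; degrees of freedom 3 residual, 5.88 prior). Benjamini-Hochberg adjustment ran over all 19938 genes with a threshold of 0.05. Where all arrays of a group lay under the background limit (3.50, from olfactory receptor genes), the fold against it was computed from that limit and is a lower bound. The procedure was tested on simulated data.

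The members, lists and tests were chosen with earlier results of these data known. Values on every array are given for the main chains of muscle connective tissue, members past the threshold, the 5 largest differences of each comparison and the 3 members furthest apart within each group, the last 2 kinds among members above background. Of each pathway list up to 4 genes with the smallest p in suspension minus control are named, and every gene past the threshold. Fibromodulin and keratocan stand in the tendon list too. The settings varied were the variance prior, array weights, a signal filter, quantile normalization, median centring or cyclic loess, the use of clusters, fits of the compared groups alone, a replicate block, a looser threshold and each array left out.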

Additional observations from a re-analysis of the deposited data

How the results depend on the processing

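Of 23 named members under 17 alternatives each (16 where the signal filter drops the gene), 388 values were recomputed for each comparison. Direction and side of the threshold held for 362 in suspension minus control, 360 in electroacupuncture minus suspension and 373 in electroacupuncture minus control. The direction reversed in 13, 28 and 9, mostly with 1 array left out. In suspension minus control, 1 collagen was called; 0 were called with eBayes without a trend, with array weights, with every cluster by itself, with the compared groups alone and with the replicate block, and 2 (Col12a1 and Col22a1) at adjusted p under 0.1. With 1 array left out 0 to 2 were called. Col12a1 kept its call in 6 of 17 alternatives and lost it in 11 (adjusted p from 0.0212 to 0.217). The number of all genes called there, 209, became 80 with eBayes without a trend, 130 with array weights, 1 with every cluster by itself, 68 with the compared groups alone, 102 with the replicate block and 482 at 0.1, and 16 to 301 with 1 array left out. In electroacupuncture minus suspension 0 genes were called, but 1 with the robust prior, 4 with array weights, 3 with the compared groups alone, 1 at 0.1 and 0 to 3 with 1 array left out; collagens gave 0 in every alternative run. In electroacupuncture minus control the 206 genes called became 101 with eBayes without a trend, 312 with quantile normalization, 1 with every cluster by itself, 129 with the compared groups alone, 127 with the replicate block and 399 at 0.1, and 2 to 299 with 1 array left out. Collagens went from 0 to 2 with the compared groups alone and from 0 to 2 with 1 array left out. The cause was not tested. With 1 array left out, the lone array is assumed to vary like the other groups. The median collagen difference ran from -0.26 to -0.063 in suspension minus control and from -0.24 to -0.066 in electroacupuncture minus control with 1 array left out, and the latter was -0.26 among collagens at or above the median signal. In electroacupuncture minus suspension, Col14a1 became 0.0007 and Col9a2 -0.0003 with quantile normalization, Col9a2 -0.0071 with median centring and Col26a1 0.0089 with cyclic loess, all near 0. With 1 array left out, the differences that changed sign ran as follows in suspension minus control: Col10a1 -0.51 to 0.046, Col14a1 -0.73 to 0.25, Col25a1 -0.34 to 0.24, Col26a1 -0.42 to 0.029, Col3a1 -1.09 to 0.44, Col4a1 -0.45 to 0.029, Col4a2 -0.29 to 0.12, Col4a4 -0.31 to 0.061, Col5a1 -0.092 to 0.14, Col5a2 -0.57 to 0.18, Col6a3 -0.63 to 0.096, Col9a2 -0.36 to 0.25. In electroacupuncture minus suspension they were: Col11a1 -0.15 to 0.036, Col14a1 -0.52 to 0.46, Col15a1 -0.11 to 0.12, Col18a1 -0.24 to 0.13, Col1a1 -1.11 to 0.68, Col1a2 -0.77 to 0.73, Col26a1 -0.23 to 0.22, Col3a1 -1.09 to 0.44, Col4a1 -0.40 to 0.085, Col4a4 -0.19 to 0.17, Col5a1 -0.18 to 0.054, Col5a2 -0.45 to 0.31, Col6a2 -0.32 to 0.066, Col6a3 -0.57 to 0.15, Col9a2 -0.088 to 0.090. In electroacupuncture minus control they were: Col25a1 -0.24 to 0.34, Col4a4 -0.32 to 0.051, Col5a1 -0.10 to 0.028, Col8a1 -0.17 to 0.11, Col9a2 -0.36 to 0.25. Deviations of same-numbered arrays from their group means correlated at -0.16 for control and suspension, 0.02 for control and electroacupuncture and -0.02 for suspension and electroacupuncture, so the replicate numbers were not taken as pairs. Only 2 arrays a group limit all values, and Col4a6 lay within the background range.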
